A study of Mus musculus with 3 samples.

Results

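Ubiquitin ligases of T cell tolerance were described in 10 genes chosen by name: Cbl, Cblb, Itch, Nedd4, Ndfip1, Ndfip2, Rnf128, Peli1, Stub1 and Usp7. All 10 were found by their GENCODE M21 identifiers among the 55536 annotated mouse genes of the deposited tables. The tables come from 3 libraries of polyadenylated RNA, here library 1, library 2 and library 3, which the labels call technical replicates of 1 biological replicate. The cells were primary regulatory T cells (Treg) of the mouse, activated in a way the labels do not give, from a male aged 3 weeks. No genotype, strain or second condition is given. There was therefore 1 group and no contrast between groups, and every SD here is the spread between these libraries, not between animals.

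Ubiquitin is passed from an activating enzyme to a conjugating enzyme and then, through a ligase that picks the substrate, onto a protein that is thereby sent to the proteasome, to the lysosome or into a signalling complex. In T cells several ligases act on proteins downstream of the antigen receptor and CD28, and mice without Cblb, Itch or Ndfip1 are known for T cell hyperactivity. The label covers more than ligases. Cbl, Cblb, Rnf128 (GRAIL) and Peli1 are RING ligases or close relatives of them, Itch and Nedd4 are HECT ligases, and Stub1 (CHIP) is a U-box ligase. Ndfip1 and Ndfip2 are membrane adaptors that recruit and activate NEDD4-family ligases, and Usp7 removes ubiquitin, with Foxp3 among its known substrates.

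The libraries held 28419259 to 31959927 reads on annotated genes. All 7 Treg markers were detected at 1 TPM or more in each library (TPM is transcript abundance scaled for length and to a fixed total), and their summed level was 2399 to 2734 TPM. The 5 erythroid markers summed to 8528 TPM in library 1, against 686 and 503 TPM in libraries 2 and 3. The 5 monocyte or macrophage markers summed to 118, 59.3 and 75.2 TPM, and the 4 B cell markers to 14.7, 10.6 and 29.1 TPM. The 4 NK cell markers summed to 23.96 to 34.3 TPM with Ncr1 at 0 in all libraries, and the 4 neutrophil markers to 0.37 to 9.58 TPM with Elane at 0. The 2 CD8 T cell markers summed to 20.4 to 28.4 TPM, the 4 dendritic cell markers to 3.04 to 6.65 TPM, and the 6 stromal, endothelial or epithelial markers to 87.4 to 93.4 TPM, most of it Pecam1 at 71.7 to 87.4 TPM. In bulk RNA, fewer cells of a type and less RNA per cell cannot be told apart.

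All 10 genes were detected in every library. Their median level was 93.1 TPM, against 30.05 TPM over the 10601 protein-coding genes detected in all 3 libraries. The range was wide, from an adaptor among the most abundant genes to a ligase near the lower end of detected genes.

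The adaptors differed in level. Ndfip1 (chr18:38410396-38465303, plus strand, mm10) stood at 767, 935 and 740.1 TPM in libraries 1, 2 and 3, a mean of 814 ± 106 TPM (SD, n = 3). It was the most abundant of the 10 and above 98.8% of detected protein-coding genes. Ndfip2 (chr14:105258573-105309298, plus strand) stood at 92.4, 86.3 and 99.4 TPM, 92.7 ± 6.54 TPM. The Ndfip1 level was 8.30, 10.8 and 7.45 times that of Ndfip2, a mean log2((TPM + 1)/(TPM + 1)) of 3.12 ± 0.28, with the same sign in all libraries and larger than 2 SD. In the authors' smaller gene table that value was 0.67. It holds 1472, 1444 and 1476 reads of Ndfip1 and 858, 854 and 1057 of Ndfip2. The expected counts were 24250, 27657 and 27585 reads of Ndfip1 and 3139, 2751 and 3932 of Ndfip2. Neither set of counts is per length, and the reason for the lower value was not tested.

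The HECT ligases that these adaptors serve lay further apart. Itch (chr2:155133509-155226855, plus strand), a ligase whose loss in mice gives inflammatory skin disease, stood at 74.1, 81.4 and 64.0 TPM, 73.2 ± 8.73 TPM. Nedd4 (chr9:72662346-72749852, plus strand), the founding member of the family, stood at 7.02, 3.29 and 1.72 TPM, from 497, 276 and 127 reads. It was the lowest of the 10 and above only 9.76% of detected protein-coding genes. Itch exceeded Nedd4 by 4.02 ± 0.71 on the log2 scale, with every Itch value above every Nedd4 value.

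Of the CBL ligases, which bind phosphotyrosine on activated receptors and kinases, Cblb was the higher. Cblb (chr16:52031225-52208048, plus strand), the form needed to hold back T cells that lack CD28 costimulation, stood at 93.0, 119.9 and 67.6 TPM, 93.5 ± 26.2 TPM. Cbl (chr9:44142976-44234049, minus strand) stood at 27.2, 31.2 and 27.7 TPM, 28.7 ± 2.17 TPM. The log2 ratio of Cbl to Cblb was -1.74, -1.91 and -1.26. Its mean of -1.64 ± 0.34 was larger in size than 2 SD, and the TPM ranges of Cbl and Cblb did not overlap.

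Rnf128 (chrX:139563316-139673145, plus strand) encodes GRAIL, a membrane ligase first known from anergic CD4 T cells. It stood at 16.9, 15.2 and 2.58 TPM, from 849, 724 and 155 reads. Libraries 1 and 2 were close and library 3 lay far below both. Cblb exceeded Rnf128 5.51-fold, 7.87-fold and 26.2-fold, and the low value of Rnf128 in library 3 set the last of these ratios.

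Peli1 (chr11:21091291-21150323, plus strand), a Pellino ligase that acts on c-Rel in T cells, was the second most abundant at 258, 261 and 259.9 TPM, 259.8 ± 1.24 TPM. Its highest TPM was 1.01 times its lowest, the closest agreement among the 10 in TPM, though not in counts scaled by library size, as given below. It exceeded Cblb 2.78-fold, 2.18-fold and 3.85-fold, beyond 2 SD of the log2 ratio, but in the smaller table the mean log2 ratio was -0.07. Stub1 (chr17:25830505-25833404, minus strand), the chaperone-bound ligase CHIP that is known to ubiquitinate Foxp3, stood at 98.1, 115.7 and 106 TPM, 107 ± 8.78 TPM. Usp7 (chr16:8689595-8792308, minus strand), the deubiquitinase that opposes such marks on Foxp3, stood at 105, 104.9 and 73.3 TPM, 94.4 ± 18.3 TPM. The log2 ratio of Usp7 to Stub1 was 0.10, -0.14 and -0.53 and changed sign between libraries, so their levels did not differ beyond the spread. In the smaller table the mean of this ratio was 1.22.

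**Figure D1:**
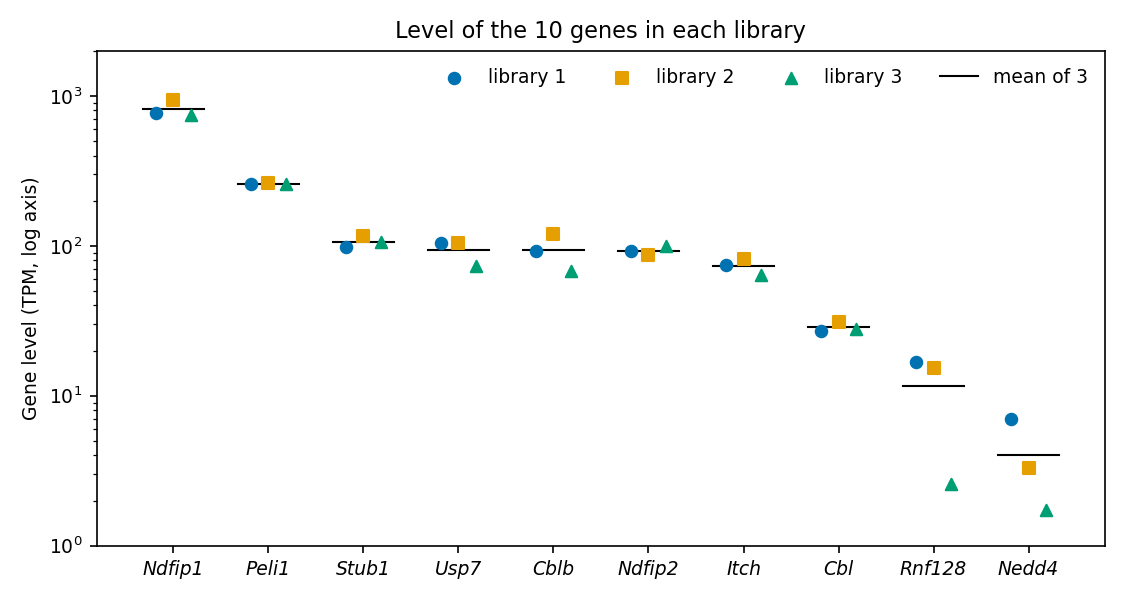
Gene level in TPM (log axis) of the 10 genes, ordered by mean; each point is 1 library and the bar is the mean of 3. Ndfip1 sits at 740.1 to 935 TPM, 5 genes crowd between 64.0 and 119.9 TPM, and the library 3 point of Rnf128 lies at 2.58 TPM, far below the others.

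From the highest to the lowest mean the order was Ndfip1, Peli1, Stub1, Usp7, Cblb, Ndfip2, Itch, Cbl, Rnf128 and Nedd4. Of the 9 neighbouring pairs in that order, 3 differed by more than the spread between libraries, with 1 sign in all libraries and a mean beyond 2 SD. These were Ndfip1 over Peli1 (1.64 ± 0.18, log2), Peli1 over Stub1 (1.28 ± 0.11) and Itch over Cbl (1.32 ± 0.12). From Stub1 to Itch no gene differed from its neighbour beyond the spread. Cbl over Rnf128 (1.55 ± 1.27) and Rnf128 over Nedd4 (1.16 ± 0.76) had 1 sign in every library but did not reach 2 SD.

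Counts were then compared between the libraries by a chi-square test with 2 degrees of freedom, with library sizes scaled by the trimmed mean of M values (TMM). Of the 10 genes, 9 passed at an adjusted p of 0.05, and across all 17190 genes averaging at least 10 reads 80.0% passed, so the count is near that background. The test sets the libraries against counting error alone. Cbl was the exception (2313, 2113 and 2546 reads, adjusted p = 0.193 by the chi-square test with Benjamini-Hochberg adjustment). Peli1 passed (adjusted p = 1.81e-17 by the same test) although library 3 differed from the mean of the others by only 0.12 on the log2(CPM + 0.5) scale and its reads numbered 15356, 14249 and 17741.

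The differences with the greatest size were in Rnf128 and Nedd4. Rnf128 in library 3 fell by 2.36 on the log2(CPM + 0.5) scale below the mean of libraries 1 and 2 (adjusted p = 1.08e-115 by the chi-square test with Benjamini-Hochberg adjustment). Without library 3 it did not pass, so libraries 1 and 2 were not told apart at this depth. Nedd4 in library 3 fell by 1.57 (adjusted p = 7.08e-53 by the same test), and library 1 was 1.33 above the mean of the others. These were the 2 genes of the 10 that were at least 2-fold lower in library 3, a size that 3.13% of the 11109 genes averaging at least 100 reads reached in that direction.

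The order of the Nedd4 values, highest in library 1, is also that of the summed erythroid markers (8528, 686 and 503 TPM). The sums of monocyte or macrophage (118, 59.3 and 75.2 TPM), dendritic cell (6.65, 3.04 and 3.10 TPM), neutrophil (9.58, 0.37 and 0.72 TPM) and stromal, endothelial or epithelial markers (93.4, 87.4 and 89.8 TPM) were highest in library 1 too. Not every member of these lists was. Pecam1 (87.4, 71.7 and 82.0 TPM) and Lyz2 (67.6, 25.0 and 49.5 TPM) were highest in library 1. Epcam (5.16, 13.96 and 6.83 TPM) was highest in library 2. Itgam (0.56, 0.52 and 0.80 TPM) and Flt3 (0.07, 0.01 and 0.75 TPM) were highest in library 3. Library 3, in which Rnf128 was lowest, had the highest sums of B cell (29.1 TPM) and CD8 T cell markers (28.4 TPM). Its sums of Treg (2599, 2734 and 2399 TPM), NK cell and erythroid markers were the lowest. The members of the first 2 of these lists did not move as one: the median difference of library 3 on the log2(CPM + 0.5) scale was -0.01 over the Treg markers and 0.75 over the NK cell markers, whose sum followed Gzma (20.2, 31.4 and 16.4 TPM). The part of these other cells in the values of Nedd4 and Rnf128 was not tested.

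The other 8 genes lay within the middle 90% of genes in library 3, which ran from -0.85 to 0.57. Cblb was 0.52 lower in library 3, Usp7 0.30 lower and Itch 0.27 lower on the log2 scale, while Ndfip2 was 0.28 higher. The median over the 10 genes was -0.16, against -0.03 over the 11109 genes. Of the 10, 6 were lower in library 3, against 53.5% of those genes. The main transcripts of Cblb, Itch and Nedd4 are long (6648, 5159 and 5499 bases), and those of Ndfip2 and Stub1 short (1695 and 1408 bases). Cbl, also long (4901 bases), was 0.06 higher in library 3, and Ndfip1, also short (1796 bases), was 0.05 lower. The fitted length and GC trend was -0.17 for Cblb, -0.12 for Nedd4 and 0.03 for Rnf128. Whether length caused these differences was not tested. After a quadratic trend in transcript length and GC content was removed, Cblb in library 3 was 0.35 lower, Nedd4 1.46 lower and Rnf128 2.40 lower.

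**Figure D2:**
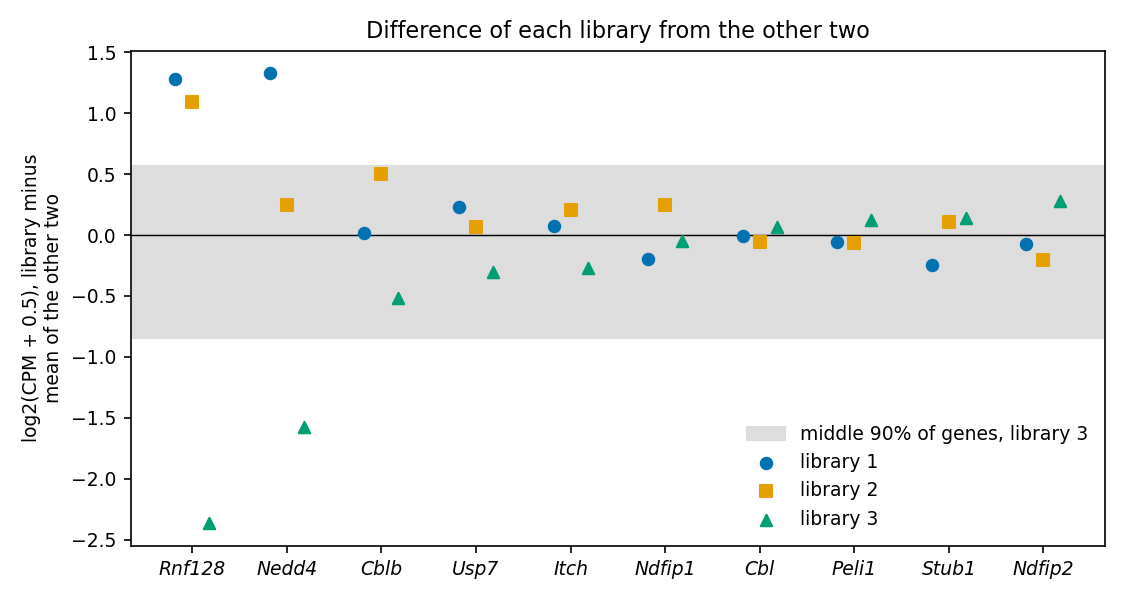
Difference of each library from the mean of the other two, in log2(CPM + 0.5), for the 10 genes ordered by library 3; the grey band is the middle 90% of genes for library 3 (-0.85 to 0.57). The library 3 points of Rnf128 (-2.36) and Nedd4 (-1.57) lie below the band, and those of the other 8 genes lie inside it.

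How much of each gene's RNA was assigned to coding transcripts differed more between genes than between libraries. The annotation divides transcripts into coding ones, retained-intron ones, ones marked for nonsense-mediated decay and other noncoding ones, and each share here is of the gene's summed TPM. In 2 of the 10 genes, Stub1 and Usp7, over 50% lay on transcripts not annotated as coding, against 15.9% of the 10601 detected protein-coding genes. The median of that share was 26.7% over the 10 genes and 13.7% over all. For retained-intron transcripts alone the medians were 17.1% and 3.37%, and 8 of the 10 lay above the latter.

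**Figure D3:**
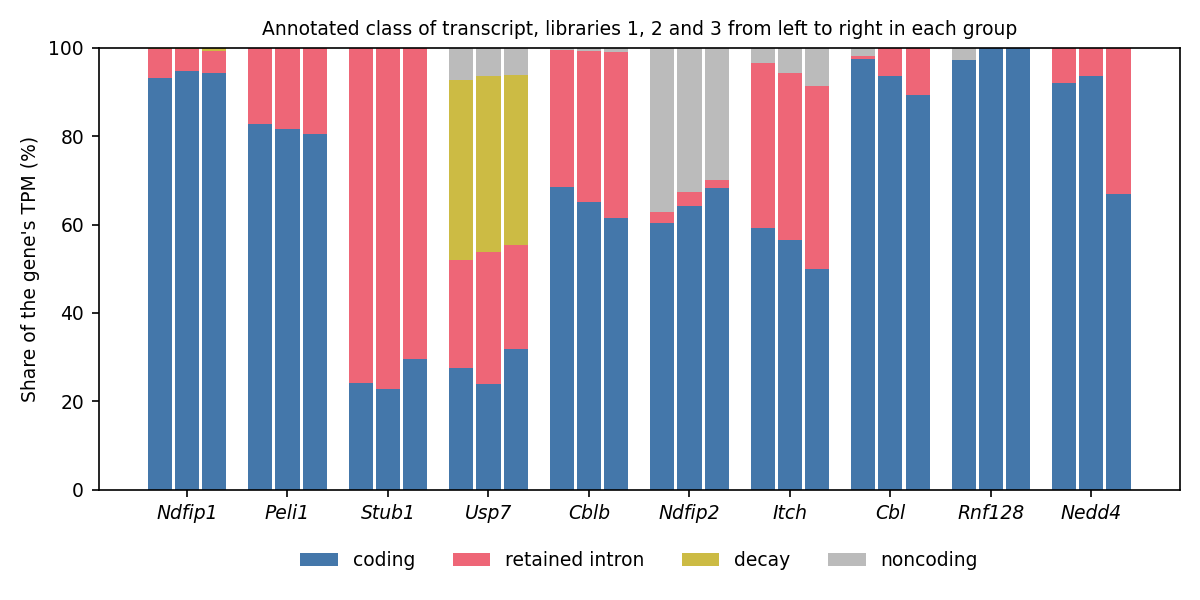
Share of each gene's TPM (%) on coding, retained-intron, decay and other noncoding transcripts, with 1 bar per library. The coding share is lowest in Stub1 (22.8% to 29.5%) and Usp7 (23.9% to 31.8%) and highest in Rnf128 (97.3% to 100%).

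Stub1 had the highest retained-intron share of the 10, at 75.8%, 77.2% and 70.5%, a mean of 74.5 ± 3.49% (SD, n = 3), above 98.8% of detected protein-coding genes. Stub1-206 carried 54.4 ± 5.98% of the gene's TPM and Stub1-202 carried 20.2 ± 2.52%. Both keep intron 4, of 178 bases, at chr17:25831366-25831543 on the minus strand (mm10), and Stub1-202 also keeps intron 5. The coding transcripts Stub1-207 (8.93 ± 1.91%), Stub1-204 (7.69 ± 2.88%) and Stub1-205 (6.69 ± 1.25%) splice it out. The intron is printed because it is what separates the majority of Stub1 RNA from the coding form. The capitals mark its first and last 2 bases and, at position 103, a TGA in frame with the 534 coding bases (178 codons) that precede it in Stub1-207; Stub1-206 has another first exon.
Stub1 intron 4: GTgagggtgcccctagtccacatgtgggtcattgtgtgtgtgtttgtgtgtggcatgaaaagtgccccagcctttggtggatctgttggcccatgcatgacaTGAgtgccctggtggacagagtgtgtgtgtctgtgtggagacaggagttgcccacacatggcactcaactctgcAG
The 3′ part of the gene is also covered from the other strand. Jmjd8, a gene on the plus strand at 17.8, 19.1 and 20.9 TPM, shares 1084 of the 2561 exonic bases of Stub1, and 3 of its 8 transcripts (11.8, 14.0 and 15.6 TPM) cover intron 4. The strandedness of the libraries is not given in the sources used here, so reads of Jmjd8 and of Stub1 with intron 4 cannot be told apart from these tables. The microRNA gene Mir3082 lies inside Stub1 on the same strand and was listed at 7.63, 0 and 0 TPM.

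**Figure D4:**
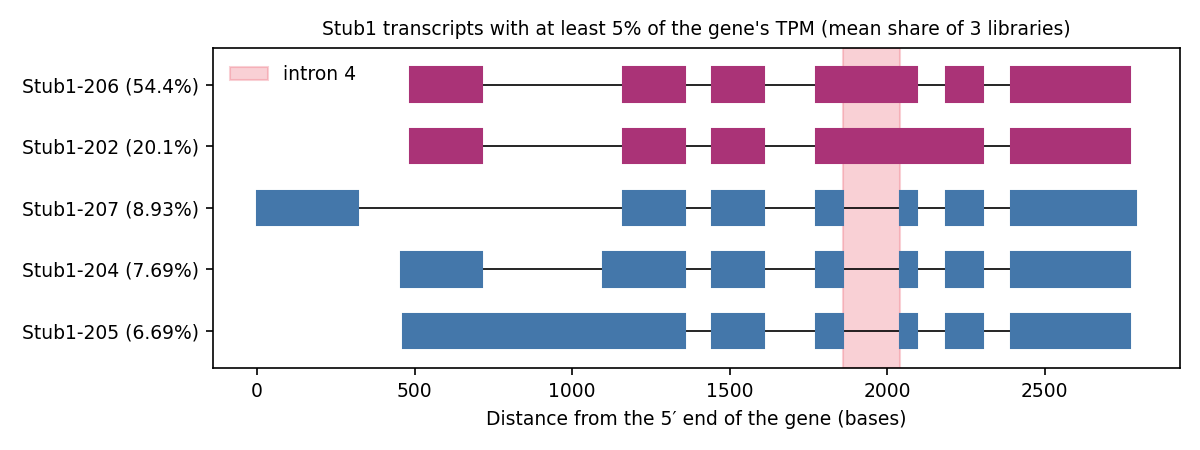
Stub1 transcripts with at least 5% of the gene's TPM, drawn by distance in bases from the 5′ end of the gene; boxes are exons (purple, retained intron; blue, coding) and the pink band is intron 4. The top transcripts, Stub1-206 (54.4%) and Stub1-202 (20.2%), run through the band, and the 3 coding transcripts do not.

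In Usp7 the most used entry was Usp7-206, annotated for nonsense-mediated decay, with 42.4, 41.6 and 28.2 TPM and a steady share of 39.5 ± 0.99%. Coding transcripts had 27.8 ± 3.94%, namely Usp7-207 at 18.1 ± 5.59% and Usp7-208 at 9.66 ± 3.77%. Another 26.0 ± 3.47% lay on retained-intron transcripts, of which Usp7-211 had 7.63 ± 1.32%, and the noncoding Usp7-210 had 6.67 ± 0.65%. Usp7-206 leaves out the last 139 bases of exon 4, at chr16:8711994-8712132 on the minus strand (mm10), a length that is not a multiple of 3. Those bases are printed because their loss sets the decay form apart; the capitals mark the GT at which they begin.
Usp7 exon 4, bases left out of Usp7-206: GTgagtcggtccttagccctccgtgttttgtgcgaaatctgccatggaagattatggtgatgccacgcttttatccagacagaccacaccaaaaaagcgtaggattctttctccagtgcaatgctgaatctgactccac
Of the TPM on the 4 Usp7 transcripts that span this place, 53.5%, 56.7% and 50.3% was on Usp7-206. Usp7-206 also differs from the coding entries at its ends, so this share was not measured on the omitted bases alone.

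Both CBL genes have an optional exon of 132 bases (44 codons) in the coding region, which leaves the frame unchanged. In Cbl it lies in intron 9 of Cbl-201, at chr9:44158977-44159108 on the minus strand. Transcripts with it held 37.9%, 37.5% and 38.9% of the TPM that spans it. In Cblb it lies in intron 15 of Cblb-201, at chr16:52186349-52186480 on the plus strand, with 28.9%, 34.0% and 28.6%. The means of these shares were 38.1 ± 0.72% for Cbl and 30.5 ± 3.04% for Cblb, and the ranges did not overlap. They leave out transcripts that do not reach the exon, such as Cblb-202. The transcripts with the exon also differ elsewhere. Cbl-206 lacks 2329 bases of exon 15 of Cbl-201, and Cblb-206 starts at another exon, inside intron 1 of Cblb-201. These shares were therefore not measured on the optional exons alone. The sequences are printed because the exons are equal in length. Laid side by side without gaps, 35 of 132 positions were identical (26.5%). That count cannot show how alike they are, because no gapped alignment and no comparison of the encoded residues was made.
Cbl optional exon: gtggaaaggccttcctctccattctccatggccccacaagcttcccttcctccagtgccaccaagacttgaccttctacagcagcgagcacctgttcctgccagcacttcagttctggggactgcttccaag
Cblb optional exon: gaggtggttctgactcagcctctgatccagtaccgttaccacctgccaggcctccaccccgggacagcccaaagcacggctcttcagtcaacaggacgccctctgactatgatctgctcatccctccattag

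Transcripts of Cbl were otherwise mostly coding, with Cbl-201 at 52.0 ± 3.66%, Cbl-206 at 24.7 ± 4.28%, Cbl-203 at 7.51 ± 5.57% and Cbl-211 at 6.22 ± 1.00%. Cblb split between Cblb-201 (35.9 ± 2.47%), which encodes 938 residues, and the retained-intron entry Cblb-202 (34.2 ± 3.19%). Cblb-202 begins near the same start, runs 3456 bases into intron 3 and lacks 15 of the 18 exons of Cblb-201, and the exons for the RING domain are among those it lacks. Cblb-206 (16.0 ± 4.55%), with the optional exon and 982 residues, and Cblb-204 (9.36 ± 0.59%) made up most of the rest.

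Itch showed a like split between coding and early-ending entries. Itch-201 had 40.5 ± 7.81% and Itch-202, which encodes the same number of residues, 864, had 14.8 ± 4.49%. The retained-intron entries Itch-204 (26.8 ± 4.17%) and Itch-205 (8.64 ± 0.97%) stop after the first exons, and the noncoding Itch-206 had 5.97 ± 2.65%. Itch-204 shares 2 exons with Itch-201 and lacks 23 of its 25, so its share rests on a short stretch near the 5′ end. As a mean share of the gene's reads, not scaled for length, Itch-204 had 8.32% and Itch-205 8.69%. By the same measure Itch-201 had 56.6% and Itch-202 21.5%, so the split is less even in reads than in TPM.

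The adaptors differed in this respect too. Ndfip1 was 94.1 ± 0.81% coding, with Ndfip1-204 at 75.5 ± 3.35%. Ndfip1-203, which starts at an upstream exon and encodes 214 in place of 221 residues, had 17.8%, 14.3% and 10.9%. Ndfip2 was 64.2 ± 3.90% coding, with Ndfip2-202 at 47.2 ± 4.85% and Ndfip2-206 at 17.1 ± 1.07%. The noncoding Ndfip2-203, which starts inside the gene, had 33.3 ± 3.62%. The processed pseudogene Gm16259 lies opposite Ndfip2 over 553 exonic bases and was listed at 0 to 0.24 TPM.

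Nedd4 had 92.0%, 93.6% and 66.9% on coding transcripts. The library 3 value rests on 127 reads for the whole gene. Nedd4-201, the full-length form, had 58.8 ± 14.9%, and the truncated entries Nedd4-209 (12.4 ± 7.55%), Nedd4-202 (12.0 ± 13.7%), Nedd4-206 (6.20 ± 10.7%) and Nedd4-205 (5.78 ± 1.58%) made up nearly all the rest. Nedd4-202 and Nedd4-206 had an SD above their mean. Peli1 was 81.6 ± 1.08% coding, nearly all on Peli1-201 (80.8 ± 1.2%), and the retained-intron Peli1-204 had 15.2 ± 1.35%. Of the gene's reads, Peli1-201 had a mean of 90.3% and Peli1-204 5.21%.

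Nearly all Rnf128 TPM was on 1 transcript. Rnf128-201, from the downstream start at base 139610620 of chromosome X, held 97.3%, 100% and 100% of the TPM, and the rest in library 1 (0.46 TPM) was on the noncoding Rnf128-203. Rnf128-202, from the upstream start at 139563316, was listed at 0 in all 3 libraries, with upper posterior bounds of 0.20 to 0.33 TPM. The promoter of the used start is printed because Rnf128 differed most between libraries (RefSeq, GRCm38.p6, chrX:139610370-139610669, plus strand, from 250 bases before to 50 after the start). The capitals mark 2 copies of TTTCC, the reverse complement of the NFAT core GGAAA, and 1 GC box, GGGCGG.
Rnf128 promoter: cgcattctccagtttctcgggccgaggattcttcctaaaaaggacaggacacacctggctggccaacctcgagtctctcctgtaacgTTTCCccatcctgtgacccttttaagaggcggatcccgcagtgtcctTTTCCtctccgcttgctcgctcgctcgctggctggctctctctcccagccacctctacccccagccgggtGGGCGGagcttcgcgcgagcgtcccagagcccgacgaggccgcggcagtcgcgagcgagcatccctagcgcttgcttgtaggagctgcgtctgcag
Both strands were searched. GGAAA was present in 61.3% and GGGCGG in 35.7% of 32851 RefSeq promoters of this length, so these matches are common.

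Promoter entries were found for 8 of the 10 genes. Their CpG count in 300 bases was above the median of 7 over all promoters in each entry, from 13 at a second start of Nedd4 and 15 in Ndfip2 to 43 in Cbl and 63 in Usp7. No entry held TATAAA, which 13.6% of all promoters hold, and none held the forkhead motif GTAAACA (3.6%). The EGR core GCGTGGG was found once, in Cblb, against 5.0% of all promoters. No reads bear on these windows, and the matches are a description of the sequence only.

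Counting coding transcripts alone changed the order. Stub1 dropped from rank 3 to 6, with 23.8, 26.4 and 31.2 coding TPM, and Usp7 from rank 4 to 8, with 29.0, 25.1 and 23.3 coding TPM. The drop of Stub1 rests on its retained-intron share, and reads of Jmjd8 and of Stub1 with intron 4 cannot be told apart. Cblb rose from rank 5 to 3, with 63.7, 78.2 and 41.6 coding TPM (61.1 ± 18.4 TPM). Ndfip2 followed at 59.6 ± 7.06 coding TPM and was above Cblb in library 3 (67.8 TPM), so this order changed between libraries. Ndfip1 (766 ± 104 TPM), Peli1 (212 ± 2.34 TPM), Rnf128 (11.4 ± 7.67 TPM) and Nedd4 (3.57 ± 2.69 TPM) kept their ranks. Stub1, Usp7 and Cbl, whose whole-gene means ran from 28.7 to 107 TPM, lay together at 25.8 to 27.2 coding TPM. Their order changed between libraries.

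**Figure D5:**
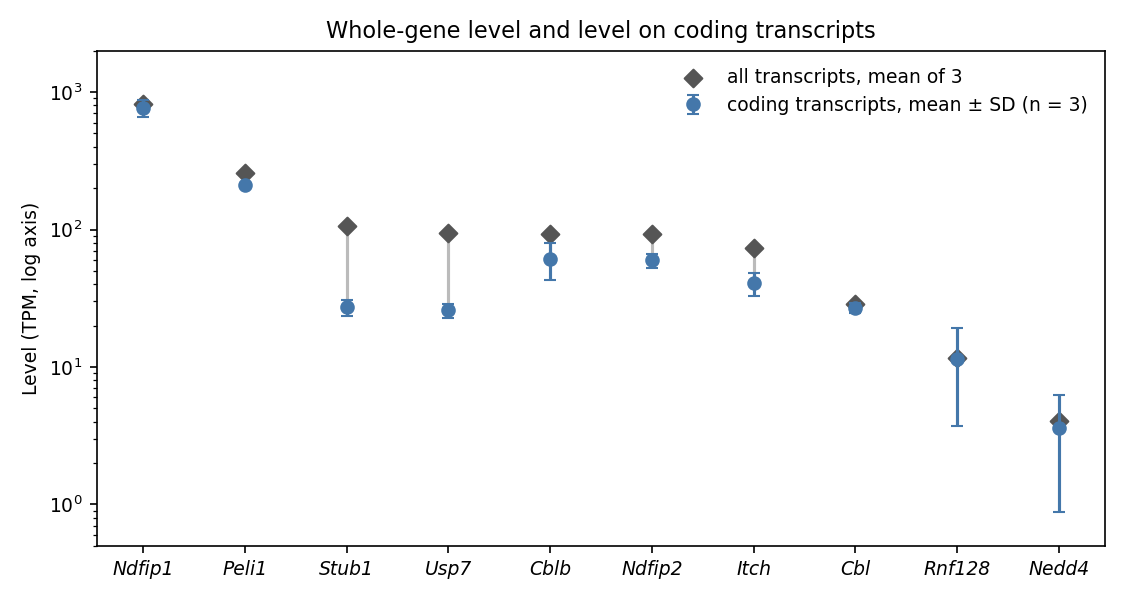
Mean level in TPM (log axis) on all transcripts (diamonds) and on coding transcripts (circles, mean ± SD of 3 libraries). The gap is widest for Stub1 (107 against 27.2 TPM) and Usp7 (94.4 against 25.8 TPM) and hardly visible for Rnf128 and Ndfip1.

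Relatives and partners of the 10 genes were described from lists. Among 7 other NEDD4-family HECT ligases 5 were detected, led by Wwp2 (102.6, 79.5 and 52.3 TPM), Smurf2 (46.0 ± 6.92 TPM) and Smurf1 (25.4 ± 4.08 TPM), and Hecw1 and Hecw2 were under 1.10 TPM throughout. Itch and Wwp2 were thus the leading members of that family in these cells. Of 9 CBL relatives and partners 8 were detected, led by the phosphatase-like Ubash3a (226 ± 23.7 TPM), the CBL-binding adaptor Sh3kbp1 (206 ± 16.4 TPM) and Grb2 (141 ± 6.32 TPM), down to Cd2ap (16.0 ± 0.79 TPM), while Cblc, the epithelial CBL, was at 0.06 to 0.21 TPM. Peli2 (3.87 ± 1.15 TPM) and Peli3 (0.64 ± 0.17 TPM) were far below Peli1 in every library.

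Of 11 GRAIL relatives and the enzymes that act on GRAIL, 8 were detected. Rnf167 led with 290.4 ± 11.4 TPM, followed by the GRAIL regulator Otub1 (63.2 ± 4.65 TPM) and Rnf149 (50.2 ± 6.21 TPM), and Rnf148 and Znrf4 were listed at 0. Of 6 chaperone partners of CHIP, Hspa8 (1227 ± 112 TPM), Hsp90ab1 (404 ± 10.9 TPM) and Hsp90aa1 (229 ± 4.39 TPM) were abundant, and the inducible Hspa1b and Hspa1a were at most 3.44 and 0.49 TPM. Of 8 partners and targets of USP7, 7 were detected. Trp53 (173 ± 35.2 TPM), Foxp3 (130.2 ± 22.0 TPM) and Trim27 (114 ± 15.8 TPM) led, and Uhrf1 (32.9, 12.8 and 10.7 TPM) and Usp44 (0.92, 0.05 and 0.07 TPM) were lowest.

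All 9 conjugating enzymes on the list were detected, with Ube2d3 (607 ± 65.3 TPM), Ube2l3 (282 ± 29.0 TPM) and Ube2n (251 ± 13.9 TPM) highest and Ube2w (23.6 ± 1.68 TPM) and Ube2l6 (52.1, 11.1 and 18.8 TPM) lowest. Of 18 other ubiquitin enzymes of T cells 17 were detected. Birc3 (138 ± 11.4 TPM), Trim28 (131 ± 13.9 TPM) and Dtx1 (87.6 ± 22.0 TPM) led them, and Skp2 (4.99 ± 0.54 TPM) and Marchf1 (0.86 ± 0.36 TPM) were lowest. Of 26 known substrates 25 were detected in every library, at a median of 112 TPM, with Cd3e (973 ± 47.2 TPM), Txnip (929 ± 284 TPM) and Arhgdia (649 ± 64.6 TPM) highest and Jun (10.8 ± 4.18 TPM), a known target of Itch, among the lowest. All 17 anergy genes were detected, from Dgka (515 ± 102 TPM), Izumo1r (365 ± 52.1 TPM) and Dgkz (254 ± 42.3 TPM) to Egr3 (10.02 ± 1.99 TPM) and Ndrg1 (8.19 ± 3.64 TPM). The median of the anergy genes was 45.8 TPM, beside 93.1 TPM over the 10 genes described here.

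The chi-square test passed 7 of the 7 HECT relatives, 7 of 8 CBL relatives tested, 9 of 9 GRAIL relatives tested, 6 of 6 chaperone partners and 7 of 8 USP7 partners, beside the 80.0% of all genes. It passed both Pellino relatives, 9 of 9 conjugating enzymes, 17 of 18 other ubiquitin enzymes, 24 of 26 substrates and 17 of 17 anergy genes. The share passing rose with depth: of genes averaging 50 or more reads, 87.1% passed.

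The 3 protein-coding genes nearest to Ndfip1 in level across the 3 libraries, by the largest log2(TPM + 1) difference from it, were Selplg (801.6, 956 and 796 TPM, within 0.11), Slfn2 (721, 848 and 831 TPM, within 0.17) and Srrm2 (766, 829 and 760.2 TPM, within 0.17).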

How the data were processed

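Each of the 3 libraries has 2 gene tables and a transcript table. Gene and transcript tables with the RSEM column layout, per the file headers, use mm10 with GENCODE M21; aligner, quantifier, kit and strandedness: not given in the sources used here. Expected counts as deposited are the authors' estimated reads per gene or transcript, not normalized. TPM and FPKM as deposited were scaled by the authors for length and depth. The posterior bounds on TPM are scores as deposited in the same tables and belong to the posterior mean TPM. The share of a gene per transcript is deposited as a percent and was recomputed here from TPM. The smaller deposited gene table holds whole-number read counts by the authors on an older annotation, compressed at high values, and served as an alternative only.

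Spike-in and transfer RNA entries (26345 of 81881; 0.166% to 0.229% of reads) were left out. Expected counts were rounded and tested by chi-square (2 degrees of freedom), expecting shares proportional to TMM library sizes from edgeR 4.0.16 in R 4.3.3, for genes averaging at least 10 reads, with Benjamini-Hochberg adjustment over all of them. DESeq2 1.42.0 gave alternative size factors. 2 genes were held to differ beyond the spread if log2((TPM + 1)/(TPM + 1)) kept its sign in each library and its mean was over 2 SD. Gene totals were 30362256, 28419259 and 31959927 reads; these give counting error only. The chi-square step was tested on simulated data. Python 3.11.15, pandas 2.3.3, scipy 1.17.1 and matplotlib 3.10.9 were used.

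The 10 genes and all lists were chosen with earlier results of these data known. Named were the 10 genes, the up to 3 highest and 2 lowest genes of each list by mean TPM, transcripts with a mean share of 5% or more, genes whose exons overlap one of the 10, and the 3 genes nearest to the most abundant one. Marchf1 was matched under its M21 symbol. A gene that this rule names is not reported here, though list counts include it. Sequences come from the GENCODE M21 transcripts and RefSeq promoters (GRCm38.p6). Alternatives were the size factors, filters, posterior means, FPKM, the smaller table, a pseudocount of 0.1, coding transcripts alone, a length and GC trend, and each library left out.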

Additional observations from a re-analysis of the deposited data

How the results depend on the processing

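The number of the 10 genes that passed the chi-square test was 9 in the main analysis, 7 in the smaller gene table, where Ndfip1 and Peli1 joined Cbl, and 7 to 9 with 1 library left out. Stub1 did not pass without library 1, and Rnf128 and Peli1 did not pass without library 3. Over all genes the count of 13747 became 7844 in the smaller table and 8880 to 11773 with 1 library left out, lowest without library 3. Among the gene pairs, the smaller table turned Peli1 to Cblb to -0.07 and Usp7 to Stub1 to 1.22 (log2). Neither that table nor the expected counts are per length. The expected counts put Peli1 (15356, 14249 and 17741 reads) above Cblb (8622, 10028 and 7155 reads) in every library. They also put Usp7 (6952, 6008 and 5772 reads) above Stub1 (2590, 2836 and 3291 reads) in every library, as the smaller table did on average. Why these pairs turned in the smaller table was not tested. The smaller table kept the direction and call of the other pairs, though Ndfip1 to Ndfip2 went from 3.12 to 0.67. The remaining settings kept the direction and call of all 6 pairs. The median difference of the 10 genes in library 3, -0.16, was -0.11 in the smaller table, -0.18 with the length and GC trend removed, and -0.23 to -0.11 with library 1 or 2 left out. Of 50 alternative values of the levels 2 moved by more than 1 SD, and of 50 values of the leading transcript's share 8 did, mostly when expected counts replaced TPM. No paired analysis was possible because there is 1 group. The libraries are technical, so the spread between animals is not known.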
